A study of Mus musculus with 15 samples.

Results

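Pannexins and connexins are families of proteins that form large channels in the plasma membrane of vertebrate cells. The messenger RNAs of 8 of their genes, the pannexins Panx1 and Panx2 and the connexins Gja1, Gjb2, Gjb6, Gjc1, Gjc3 and Gjd2, were followed here in cultured adult neural stem cells (aNSCs) of the mouse. They were selected on readouts of the same 3 groups that are compared below, with earlier results of these data in view, so their levels and fold changes are given as a description, with no p. Which of them passed the threshold used for all genes is stated in 1 paragraph, beside the share of all genes that did. It is stated again for other settings in the closing section, and supports nothing. They were found in the count table by the Ensembl identifiers of their symbols. They are 8 of the 21 pannexin and connexin genes followed here and of 53801 genes in the table. The other 13 genes of the family were taken as the comparison. They and the further lists read below were also chosen with earlier results known, so their p-values are descriptions and not independent support.

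RNA-seq was done on 15 cultures in 3 groups of 5. The cells came from the subventricular zone of C57BL6/J-129sv mice aged 2 months, 3 labelled male and 2 labelled female in each group, and were grown in suspension with EGF and bFGF. All 3 groups carried the Rosa26-CreERT2 transgene, a recombinase that 4-hydroxytamoxifen (4-OHT) switches on in any cell that uses the Rosa26 locus, and at least 1 floxed allele of Trrap, which encodes an adaptor of histone acetyltransferase complexes. The Fl/+ untreated cultures had 1 floxed and 1 wild-type allele and no 4-OHT. The Fl/+ 4-OHT cultures came from the same 5 mice (19, 24, 26, 35 and 36), so that their floxed allele was also open to recombination. The Fl/Fl 4-OHT cultures came from mice 27, 28, 29, 37 and 39 and had both alleles floxed. The labels give 5 days of treatment, whereas the study's methods describe a shorter exposure followed by fresh medium, so the time in 4-OHT is uncertain. No Fl/Fl culture without 4-OHT was analysed here. The Trrap deletion is therefore read from Fl/Fl 4-OHT against Fl/+ 4-OHT, and 4-OHT from Fl/+ 4-OHT against Fl/+ untreated. Fold changes for 4-OHT are from the fit without the mouse, and those with the mouse as a replicate block are named as such. In the 4-OHT comparison the agent, recombination of the single floxed Trrap allele and any difference in time between the cultures cannot be told apart.

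Connexins assemble in sixes into hemichannels. When hemichannels of neighbouring cells dock they form a gap junction, through which ions and small molecules pass from cell to cell. Pannexins have a like fold but mostly stay undocked, and Panx1 is best known as a route by which ATP leaves cells to act on purinergic receptors. In the brain the genes are divided among cell types. Gja1 (connexin Cx43), Gjb6 (Cx30) and Gjb2 (Cx26) are the connexins of astrocytes, and Gja1 and Gjb2 also couple embryonic radial glia. Gjc3 (Cx29) belongs to the oligodendrocyte lineage and Gjd2 (Cx36) to the electrical synapses of neurons. Gjc1 (Cx45) is found in early neural cells, some neurons and vessel walls, and Panx2 in neurons and their progenitors.

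Stretches of 250 bases upstream of the annotated start are shown for the 4 genes on which most of the account turns: Panx1, the gene lower in the Fl/Fl cultures without overlap, Gjc3, the gene lower after 4-OHT without overlap, and Gjb2 and Gjb6, neighbours in the genome that were low together. The sequences are from RefSeq on GRCm38.p6, written 5′ to 3′ on the gene's own strand, which is the minus strand for all 4. They lie at chr9:15045479-15045728 (Panx1), chr5:137963099-137963348 (Gjc3), chr14:57104703-57104952 (Gjb2) and chr14:57133612-57133861 (Gjb6). Capitals mark the letters GGGCGG, the core of the GC box, on either strand.
Panx1: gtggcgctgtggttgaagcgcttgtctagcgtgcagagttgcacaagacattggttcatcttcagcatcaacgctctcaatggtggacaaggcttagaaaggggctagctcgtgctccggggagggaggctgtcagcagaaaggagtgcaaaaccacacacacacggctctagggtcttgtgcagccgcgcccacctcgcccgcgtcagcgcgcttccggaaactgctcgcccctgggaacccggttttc
Gjc3: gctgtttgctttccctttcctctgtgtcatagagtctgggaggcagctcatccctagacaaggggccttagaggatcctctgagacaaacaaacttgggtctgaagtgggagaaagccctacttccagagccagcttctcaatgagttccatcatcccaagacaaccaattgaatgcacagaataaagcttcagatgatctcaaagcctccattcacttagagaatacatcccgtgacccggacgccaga
Gjb2: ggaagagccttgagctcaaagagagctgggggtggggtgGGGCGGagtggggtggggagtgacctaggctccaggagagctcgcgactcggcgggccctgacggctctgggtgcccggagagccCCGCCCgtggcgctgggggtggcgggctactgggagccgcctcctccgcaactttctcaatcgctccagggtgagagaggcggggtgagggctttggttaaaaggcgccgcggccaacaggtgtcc
Gjb6: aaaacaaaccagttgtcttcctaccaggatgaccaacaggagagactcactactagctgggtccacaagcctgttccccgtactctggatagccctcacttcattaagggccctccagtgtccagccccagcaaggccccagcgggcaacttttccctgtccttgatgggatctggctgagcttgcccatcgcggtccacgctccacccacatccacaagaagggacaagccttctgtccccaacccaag
Of the 8 genes, 6 had an upstream stretch in the RefSeq table. The letters GGGCGG, searched on both strands, were found in Gjb2 (2 matches) and Gjd2 (1 match) and were not found in Panx1, Gja1, Gjb6 or Gjc3, whereas 32.7% of 32851 stretches of the same length over all genes hold them. TATAAA on either strand was in none of the 6 stretches and in 12.4% of all stretches. The count of CpG dinucleotides was 33 for Gjd2, 18 for Gjb2, 17 for Panx1, 6 for Gja1, 5 for Gjb6 and 3 for Gjc3, against a median of 6 over all stretches. Gjb2 and Gjb6, though neighbours, thus differed in both counts.

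Levels are CPM, counts scaled to a library total of 1000000 after TMM, which adjusts each total for a few very abundant genes. Library totals lay between 25.7 M and 32.2 M counts, and at these depths 3 counts, the limit that a count of 0 allows, equal 0.0932 to 0.118 CPM. Limits and intervals of this kind cover counting error only. Trrap itself was at 179 to 214 CPM in the Fl/+ untreated libraries, at 138 to 204 CPM in Fl/+ 4-OHT and at 82.8 to 142 CPM in Fl/Fl 4-OHT, where the highest Fl/Fl library overlapped the lowest Fl/+ 4-OHT library. The labelled cell type was checked on 10 neural stem cell markers, all of which were tested in each comparison and summed to 5727 to 10277 CPM per library. Of 6 microglia markers 4 (Cx3cr1, Aif1, Tmem119 and Itgam) never exceeded 3 counts, nor did the endothelial Cdh5 and Cldn5 or the ependymal Tmem212. In bulk RNA, fewer cells of a type and less RNA per cell cannot be told apart.

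Libraries of 3 mice need mention before the results. The library of mouse 37 stood apart from the other 4 of its group. It had 1013 CPM of Mbp (myelin basic protein), against 81.0 to 154 CPM in the others, and 2264 CPM of Gfap (the glial intermediate filament), against 231 to 532 CPM. The library of mouse 39 went against its label, since it is labelled female but had 0.313 CPM of Xist and a summed 213 CPM of Y-linked genes. Mouse 36, labelled male, had Y-linked genes at 217 CPM untreated and 205 CPM with 4-OHT, but also Xist at 5.89 and 74.7 CPM, against 0.154 to 0.541 CPM in the other Fl/+ libraries labelled male. The main results that change without these libraries are given with the value without them. The mice also fall into lower (19 to 29) and higher (35 to 39) numbers, and several genes followed this division, as described below.

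**Figure D1:**
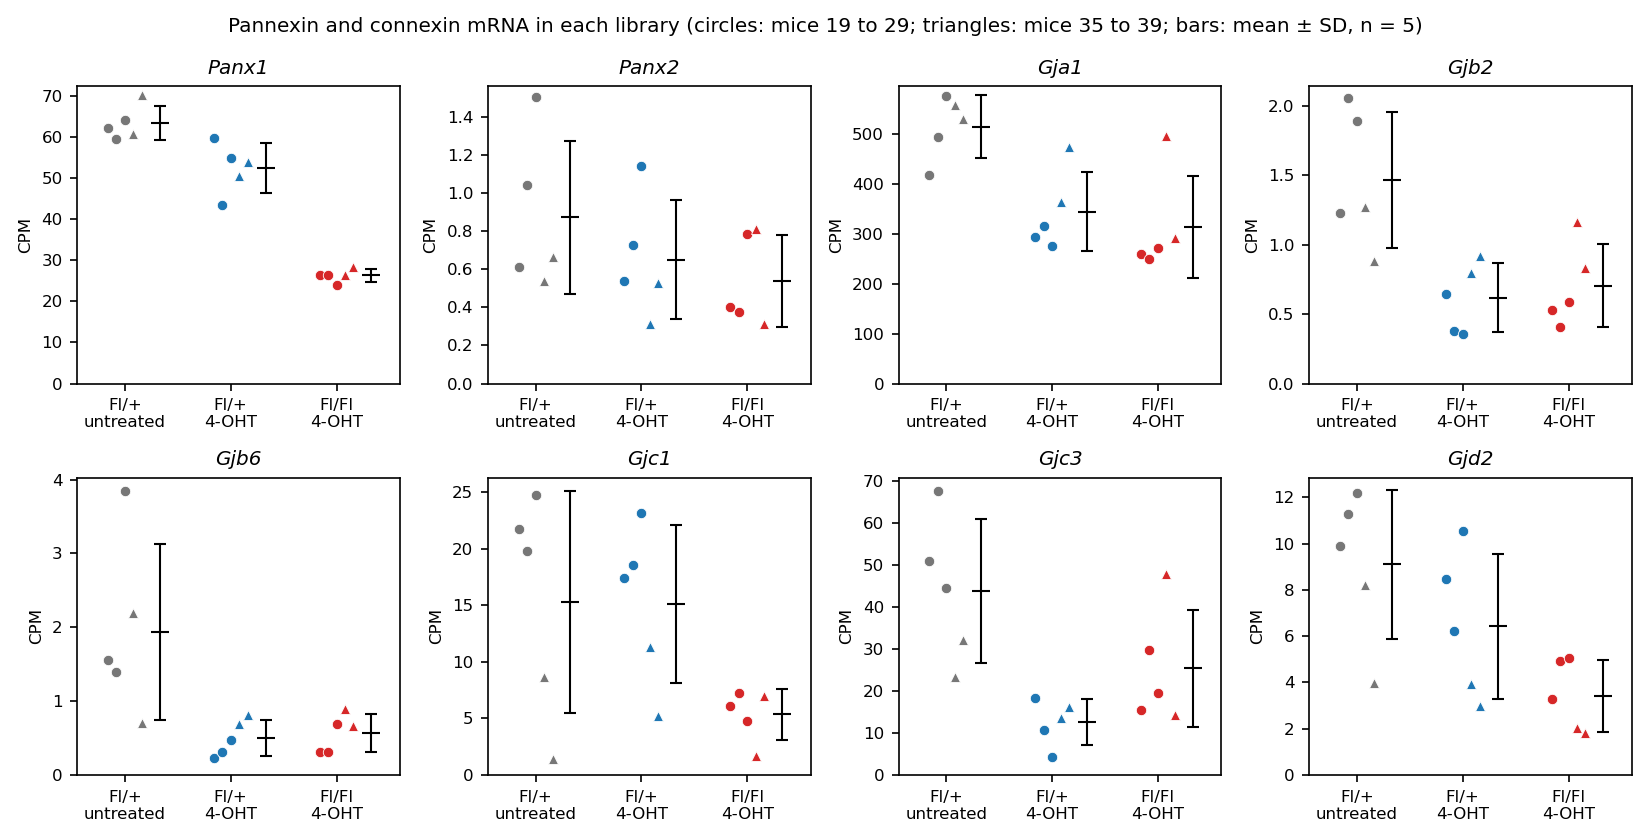
CPM of each of the 8 genes (vertical axis, linear from 0) in the 15 libraries by group, with each group's mean ± SD (n = 5). The 5 Fl/Fl 4-OHT points of Panx1 lie between 23.9 and 28.3 CPM, below every other library, and the Fl/+ 4-OHT points of Gjc3 lie at 18.2 CPM or less, below every untreated one.

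Levels between genes were compared per kilobase of exon. Gja1 was the most abundant of the 8 genes in each group, with 50.2 ± 6.13 CPM per kb in Fl/+ untreated, 33.6 ± 7.72 in Fl/+ 4-OHT and 30.6 ± 10.01 in Fl/Fl 4-OHT (SD, n = 5). It made up 73.5%, 77.01% and 74.5% of the summed CPM per kb of the 18 connexin genes followed here in the 3 groups. In every library Gja1 lay above the next gene, without overlap of the ranges. In the untreated cultures Panx1 (10.5 CPM per kb) and Gjc3 (10.04 CPM per kb) came next, and their ranges overlapped. Gjd2 (3.16 CPM per kb) and Gjc1 (3.05 CPM per kb) followed and also overlapped. Gjb6 (0.725 CPM per kb), Gjb2 (0.609 CPM per kb) and Panx2 (0.243 CPM per kb) were lowest, each overlapping its neighbour in the order. In Fl/+ 4-OHT cultures the order after Gja1 was Panx1, Gjc1, Gjc3 and Gjd2, in which Panx1 was apart and the last 3 overlapped. In Fl/Fl 4-OHT cultures Gjc3 (5.83 CPM per kb) stood before Panx1 (4.36 CPM per kb), with overlapping ranges, and Gjd2 and Gjc1 again did not separate.

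**Figure D2:**
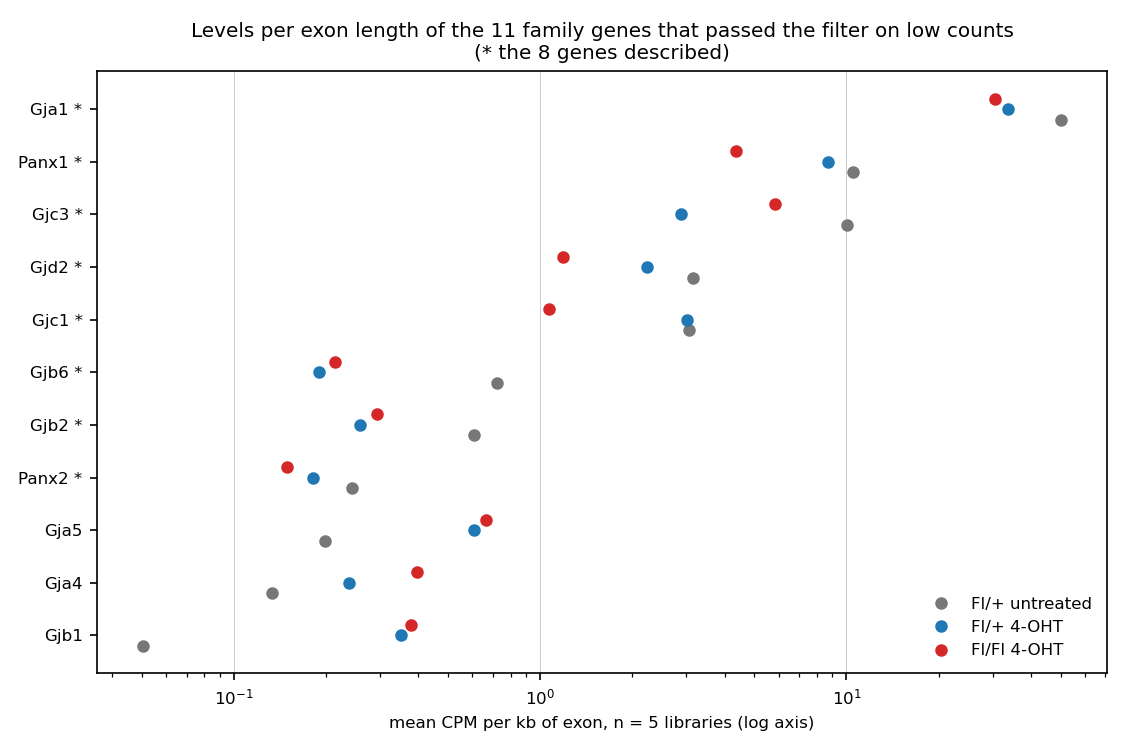
Mean CPM per kb of exon (log axis, n = 5 libraries per group) of the 11 pannexin and connexin genes that passed the filter on low counts in at least 1 comparison, with an asterisk at the 8 genes described. Gja1 is highest in each group at 30.6 to 50.2 CPM per kb, and the 10 that did not pass are not drawn.

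The counts of the 8 genes come almost wholly from sequence of their own. Of the 51-base windows in their transcripts, the length of the reads, none of Panx1, Panx2, Gjb2 or Gjb6 occurred in a transcript of another gene. The share was 0.0861% for Gja1, 0.0198% for Gjc1, 0.247% for Gjd2 and 1.93% for Gjc3. Gjb2 and Gjb6 lie 18600 bases apart on the minus strand of chromosome 14 and share no such window, so their counts are separate measurements.

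Panx1 (ENSMUSG00000031934, chr9:15002128-15045478, minus strand, GRCm38) forms the ATP-releasing channel, and its messenger RNA was the one of the 8 that separated the Fl/Fl cultures from both other groups. It was at 62.2, 59.6, 64.2, 60.6 and 70.0 CPM in the untreated cultures of mice 19, 24, 26, 35 and 36. With 4-OHT the cultures of the same mice, in the same order, had 59.8, 43.3, 54.7, 50.5 and 53.9 CPM. The Fl/Fl 4-OHT cultures of mice 27, 28, 29, 37 and 39 had 26.4, 26.4, 23.9, 26.4 and 28.3 CPM. Every Fl/Fl culture was thus lower than every Fl/+ culture, and mouse 37, which stood apart in other genes, was at the level of its group. The fitted log2 fold change was -0.98 ± 0.0894 (SE) for Trrap deletion, that is 0.507 times the Fl/+ 4-OHT level. It lay between -1.05 and -0.94 when each library was left out in turn, and was -1.05 among mice 19 to 29 and -0.92 among mice 35 to 39. Panx1 also had the lowest coefficient of variation of the 8 in each group with all libraries in. It was 6.54% untreated, 11.6% in Fl/+ 4-OHT and 6.01% in Fl/Fl 4-OHT. The next lowest was that of Gja1, at 12.2%, 23.0% and 32.8%. The last of these rests on mouse 37, with Gja1 at 495 CPM, against 250 to 291 CPM in the rest of its group.

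After 4-OHT alone Panx1 was lower in 5 of 5 mice, by a log2 fold change of -0.27 ± 0.0932, and the groups overlapped by the culture of mouse 19. With the mouse as a replicate block the log2 fold change was -0.28. Fl/Fl 4-OHT against Fl/+ untreated gave -1.26 ± 0.0780, without overlap. This comparison and the other 2 share libraries, so their values are not independent of each other.

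Panx2 (ENSMUSG00000058441, chr15:89059734-89073567, plus strand), the pannexin of neurons and progenitors, was close to the limit of what these libraries can resolve, at 9 to 43 counts. Its level was 0.615, 1.05, 1.5, 0.539 and 0.663 CPM in Fl/+ untreated, 0.541, 0.728, 1.15, 0.312 and 0.529 CPM in Fl/+ 4-OHT, and 0.404, 0.374, 0.787, 0.812 and 0.312 CPM in Fl/Fl 4-OHT. The 3 groups overlapped. The log2 fold changes were -0.26 ± 0.390 for deletion, -0.43 ± 0.386 for 4-OHT and -0.69 ± 0.386 for both together. Although its level was lower after 4-OHT in 5 of 5 mice, the deletion value took the opposite sign, 0.42, among mice 35 to 39. An antisense transcript, 1810021B22Rik, overlaps Panx2 on the other strand with 37 to 120 counts, and the library kit marks strand.

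Gja1 (ENSMUSG00000050953, chr10:56377330-56402513, plus strand), the main connexin of astrocytes and radial glia, was lower in the 4-OHT cultures of both genotypes. The untreated cultures of mice 19, 24, 26, 35 and 36 had 417, 494, 576, 558 and 531 CPM. Their 4-OHT cultures had 293, 317, 277, 365 and 473 CPM, lower in 5 of 5 mice. The Fl/Fl 4-OHT cultures had 260, 250, 271, 495 and 291 CPM, of which the 495 CPM of mouse 37 lay above all Fl/+ 4-OHT cultures and the rest below at least 4 of the 5. The log2 fold change after 4-OHT was -0.58 ± 0.152, and for deletion -0.12 ± 0.202, or -0.36 without mouse 37. Against untreated cultures the Fl/Fl 4-OHT value was -0.70 ± 0.185, or -0.93 without mouse 37. The 4-OHT value was -0.60 with the mouse as a replicate block and -0.71 without both cultures of mouse 36.

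Gjb2 (ENSMUSG00000046352, chr14:57098600-57104702, minus strand) and Gjb6 (ENSMUSG00000040055, chr14:57123303-57133611, minus strand), the other connexins of astrocytes, were scarce in every culture. Gjb2 had 1.23, 2.06, 1.89, 1.27 and 0.884 CPM in Fl/+ untreated, 0.642, 0.380, 0.356, 0.797 and 0.917 CPM in Fl/+ 4-OHT, and 0.528, 0.408, 0.590, 1.16 and 0.833 CPM in Fl/Fl 4-OHT. Gjb6 had 1.56, 1.40, 3.85, 2.19 and 0.700 CPM in Fl/+ untreated, 0.237, 0.317, 0.474, 0.693 and 0.811 CPM in Fl/+ 4-OHT, and 0.311, 0.306, 0.688, 0.889 and 0.660 CPM in Fl/Fl 4-OHT. Both were lower with 4-OHT in mice 19, 24, 26 and 35 and slightly higher in mouse 36, the culture that had the least of both without 4-OHT. For Gjb2 this is a change from between 24 and 59 counts per library to between 9 and 26, and for Gjb6 from between 19 and 110 to between 7 and 23.

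The fitted 4-OHT values were -1.24 ± 0.334 for Gjb2 and -1.93 ± 0.470 for Gjb6 on the log2 scale. They were larger in mice 19, 24 and 26 (-1.89 and -2.72) than in mice 35 and 36 (-0.31 and -0.92), a difference that was not tested. Without both cultures of mouse 36 they were -1.56 and -2.38. For Trrap deletion the groups overlapped in both genes, at 0.19 ± 0.352 for Gjb2 and 0.18 ± 0.406 for Gjb6, which became -0.07 and -0.04 without mouse 37. That mouse, at 1.16 and 0.889 CPM, was the only Fl/Fl culture outside the range of the Fl/+ 4-OHT cultures. Fl/Fl 4-OHT against untreated gave -1.05 ± 0.336 for Gjb2 and -1.75 ± 0.464 for Gjb6.

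**Figure D3:**
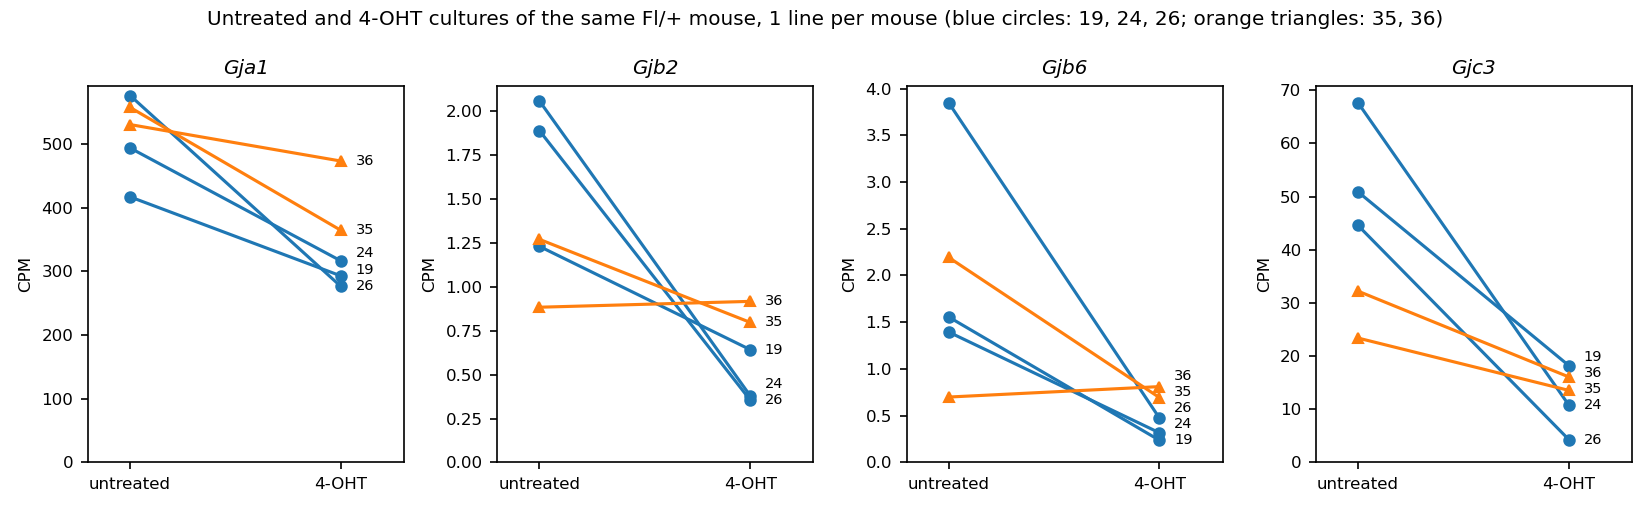
CPM of Gja1, Gjb2, Gjb6 and Gjc3 (vertical axes, linear from 0) in the untreated and the 4-OHT culture of each Fl/+ mouse, joined by a line. Gja1 and Gjc3 are lower with 4-OHT in 5 of 5 mice, Gjb2 and Gjb6 in 4 of 5, and the line of mouse 36 is the flattest or rises slightly in Gja1, Gjb2 and Gjb6.

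Gjc3 (ENSMUSG00000056966, chr5:137953461-137963098, minus strand), the connexin of the oligodendrocyte lineage, was the gene of the 8 whose 4-OHT groups did not overlap. The untreated cultures had 50.9, 67.6, 44.6, 23.4 and 32.2 CPM. The 4-OHT cultures of the same mice had 18.2, 10.8, 4.30, 13.6 and 16.1 CPM, lower in 5 of 5. In the Fl/Fl 4-OHT cultures Gjc3 was at 15.5, 29.8, 19.5, 47.9 and 14.2 CPM, between the other groups and overlapping both. The log2 fold change after 4-OHT was -1.79 ± 0.369, or 0.289 times the untreated level, and stayed between -1.96 and -1.56 when each library was left out. For deletion it was 1.02 ± 0.401, with the sign opposite to that of 4-OHT, and 0.65 without mouse 37. These values share the Fl/+ 4-OHT libraries, so a low level there moves both. Fl/Fl 4-OHT against untreated gave -0.78 ± 0.364 and -1.13 without mouse 37.

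Markers of the oligodendrocyte lineage were read beside Gjc3. Of 10 lineage markers, 6 rose after 4-OHT and none fell (edgeR's quasi-likelihood test, adjusted p below 0.05), with a median log2 fold change of 1.38 beside -0.01 over all genes, of which 13.8% were called. Mag, a myelin glycoprotein, was at 0.184 to 2.83 CPM untreated and at 3.04 to 24.9 CPM with 4-OHT (log2 fold change 3.46 ± 0.741, adjusted p = 0.0118). Sox10, the lineage's transcription factor, rose from 25.1 ± 19.2 to 96.4 ± 20.8 CPM (SD, n = 5; 1.94 ± 0.448, adjusted p = 0.0163). Mog, on the outer surface of myelin, was at 0.0214 CPM on average untreated, with no library above 0.0700 CPM, and at 0.395 to 1.93 CPM with 4-OHT (adjusted p = 0.00241). Mog passed the filter on low counts through the 4-OHT cultures alone, so only a rise could have been called. The summed level of the 10 markers, which Olig1 dominates, was 3462 to 4511 CPM untreated, 3371 to 4658 CPM with 4-OHT and 3587 to 5404 CPM in Fl/Fl 4-OHT. In Fl/Fl 4-OHT against untreated 6 rose and Olig1 fell (-0.36 ± 0.0967, adjusted p = 0.0163), beside 30.7% called over all genes. After 4-OHT alone Olig1 was at -0.37 ± 0.134 (adjusted p = 0.0931), and it fell with the mouse as a replicate block (-0.38, adjusted p = 0.0253) and by DESeq2 (adjusted p = 0.0367). For deletion 0 of the 10 markers passed in edgeR's test, with 2 at an unadjusted p under 0.05 and 1 called by DESeq2. Without mouse 37 Sox10 fell (-0.71, adjusted p = 0.0266). The part of these markers in the Gjc3 values was not tested.

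Of 8 astrocyte markers, 1 rose and 3 fell after 4-OHT, in the same test, beside 13.8% called over all genes, and their median log2 fold change was 0.12. Between Fl/Fl 4-OHT and untreated cultures 1 rose and 3 fell, beside 30.7% over all genes, and 1 rose and 1 fell without mouse 37 or without mouse 39. In Fl/+ 4-OHT against untreated Aldoc, a glycolytic enzyme of astrocytes, fell from 853 ± 162 to 510 ± 39.8 CPM (-0.74 ± 0.130, adjusted p = 0.00442). The glutamate transporter gene Slc1a3 fell there from 3254 ± 580 to 2000 ± 302 CPM (-0.70 ± 0.149, adjusted p = 0.0113). Also in that comparison S100b, a calcium-binding protein of glia, fell by 1.91 on the log2 scale (SE 0.454, adjusted p = 0.0187). Gfap was the one that rose there, from 57.7 ± 43.3 to 548 ± 510 CPM (3.25 ± 0.851, adjusted p = 0.0283). With the mouse as a replicate block Aldh1l1 rose as well (0.26, adjusted p = 0.0451). The summed level of the 8 markers was 6142 to 8046 CPM untreated, 6011 to 7319 CPM in Fl/+ 4-OHT and 5530 to 9315 CPM in Fl/Fl 4-OHT. Mouse 37 had the highest sum of both the astrocyte and the oligodendrocyte lists in its group, together with the most Gja1 and Gjc3. The part of these markers in the Gja1, Gjb2 and Gjb6 values was not tested. After deletion Aldoc rose (0.38 ± 0.0787, adjusted p = 0.00439), and no other astrocyte marker passed. Without mouse 37 the water channel gene Aqp4 (-0.72, adjusted p = 0.0260), the transcription factor Sox9 (-0.44, adjusted p = 0.0334) and Aldh1l1 (-0.34, adjusted p = 0.0463) fell as well, which makes 4 of the 8.

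Gjc1 (ENSMUSG00000034520, chr11:102799579-102819700, minus strand), the connexin of early neural cells, was lower in the Fl/Fl cultures and depended on the mouse. The untreated cultures of mice 19, 24, 26, 35 and 36 had 21.7, 19.8, 24.8, 8.70 and 1.44 CPM. Their 4-OHT cultures had 17.4, 18.6, 23.2, 11.3 and 5.22 CPM. The Fl/Fl 4-OHT cultures had 6.09, 7.21, 4.79, 1.66 and 7.01 CPM. Among mice 19 to 29 every Fl/Fl culture was under every Fl/+ culture, whereas among mice 35 to 39 the genotypes overlapped and the Fl/+ cultures of mouse 36 were themselves low. The log2 fold change for deletion was -1.48 ± 0.426, with -1.72 among mice 19 to 29 and -0.91 among mice 35 to 39. After 4-OHT the value was -0.01 ± 0.591, lower in 3 of 5 mice, and 0.25 with the mouse as a replicate block. It was -0.16 among mice 19 to 29 and 0.73 among mice 35 to 39. Fl/Fl 4-OHT against untreated gave -1.50 ± 0.607, or -1.80 without the untreated library of mouse 36.

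Gjd2 (ENSMUSG00000068615, chr2:114009601-114013619, minus strand), the connexin of electrical synapses, showed lower values at each step without a gap between adjacent groups. The untreated cultures had 9.88, 11.3, 12.2, 8.20 and 3.98 CPM, and their 4-OHT cultures 8.48, 6.24, 10.5, 3.92 and 3.0 CPM, lower in 5 of 5 mice. The Fl/Fl 4-OHT cultures had 3.29, 4.93, 5.05, 2.01 and 1.81 CPM. Within each group the higher-numbered mice had less, as for Gjc1 in both Fl/+ groups. The log2 fold changes were -0.50 ± 0.371 after 4-OHT (-0.54 with the mouse as a replicate block), -0.89 ± 0.397 for deletion and -1.40 ± 0.365 for both together. The deletion value was also -0.89 with the run of mouse numbers as a covariate.

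Neuron markers were read beside Gjd2, which is best known in neurons. Of the 8 in the list 7 were tested and 2 fell after deletion, with a median log2 fold change of -0.48 beside 0.02 over all genes, of which 31.7% were called. Dcx, of migrating young neurons, fell from 44.5 ± 23.3 to 7.75 ± 2.86 CPM (-2.51 ± 0.408, adjusted p = 0.00123 in edgeR's test). Tubb3, the tubulin of young neurons, fell from 27.0 ± 8.67 to 13.1 ± 6.60 CPM (-1.04 ± 0.329, adjusted p = 0.0334), a call that was lost without mouse 39 (adjusted p = 0.0705). After 4-OHT 1 of 7 passed, beside 13.8% called over all genes, about the same share. This was Gad1 of GABA synthesis, which fell by 1.04 on the log2 scale (SE 0.260, adjusted p = 0.0235). With the mouse as a replicate block Rbfox3 (-1.05, adjusted p = 0.0196) and Snap25 (-0.66, adjusted p = 0.00838) also fell, beside 25.7% over all genes. In the comparison of Fl/Fl 4-OHT with untreated, where the Gjd2 value was also -1.40, 6 of the 7 fell and none rose, with a median of -1.40 beside 0.00 over all genes, of which 30.7% were called. Among them were Dcx (-2.34 ± 0.328, adjusted p = 5.7e-04), Gad1 (-1.70 ± 0.300, adjusted p = 0.00189) and Snap25 (-1.12 ± 0.193, adjusted p = 0.00167). Without mouse 37 the number was 4 and without mouse 39 it was 5. The summed level of the list was 864 to 1137 CPM untreated, 826 to 1009 CPM in Fl/+ 4-OHT and 564 to 814 CPM in Fl/Fl 4-OHT. Map2 dominates this sum, with means of 902, 798 and 684 CPM in the same order. The part of the list in the Gjd2 values was not tested.

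**Figure D4:**
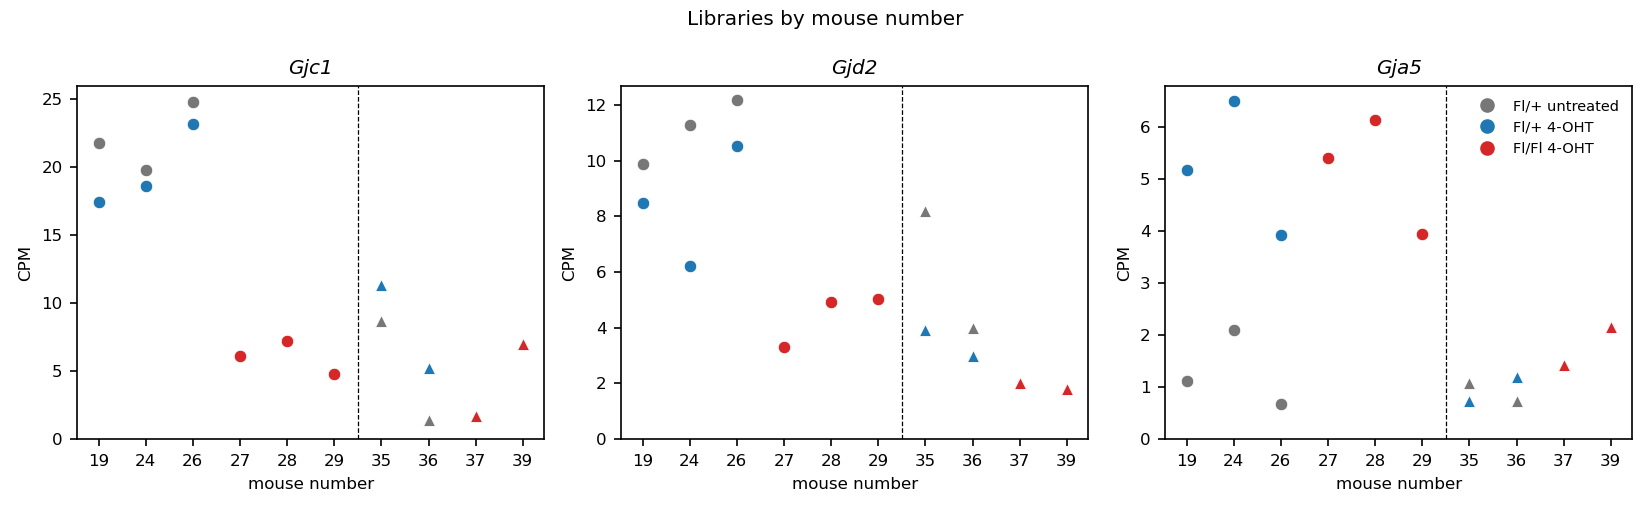
CPM of Gjc1, Gjd2 and Gja5 (vertical axes, linear from 0) by mouse number, coloured by group, with a dashed line between mice 19 to 29 and 35 to 39. Gjc1 in the Fl/+ groups lies at 17.4 to 24.8 CPM left of the line and at 1.44 to 11.3 CPM right of it, and Gja5 after 4-OHT at 3.91 to 6.49 CPM left and 0.728 to 2.15 CPM right.

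Set side by side, the 8 genes gave 2 calls for deletion (Panx1 and Gjc1, both lower), 4 for 4-OHT (Gja1, Gjb2, Gjb6 and Gjc3, all lower) and 5 for both together (Panx1, Gja1, Gjb2, Gjb6 and Gjd2, all lower) (edgeR's quasi-likelihood test, adjusted p below 0.05). Over all genes tested 31.7% were called for deletion, 13.8% for 4-OHT and 30.7% for both together. With the mouse as a replicate block, 4-OHT had 6 calls among the 8, Panx1 and Gjd2 in addition, beside 25.7% of all genes. In each comparison 1 of the 8 genes had groups that did not overlap (Panx1, Gjc3 and Panx1), beside 22.6%, 12.0% and 23.1% of all genes. Calls changed with the setting. For deletion Gjc3 was also called by DESeq2, Gjd2 was also called with the run of mouse numbers as a covariate, and Gjc1 was no longer called with the spread of all 15 libraries. For 4-OHT Panx1 was also called by DESeq2 and with the spread of all 15 libraries. The 4-OHT call of Gja1 was lost without any 1 of 6 libraries (untreated 26 or 35, 4-OHT 19, 24, 26 or 35), that of Gjb2 without any 1 of 6 (untreated 24 or 26, 4-OHT 19, 24, 26 or 35), and that of Gjb6 without the 4-OHT library of mouse 19 or 24. For both together Gjb2 was lost without any 1 of 6 libraries (untreated 24 or 26, Fl/Fl 27, 28, 29 or 39) and without the filter on low counts, Gjc3 was called without mouse 37, and Gjc1 without the untreated library of mouse 36. Since the genes were listed on these contrasts, nothing is read from the counts or the calls. The median log2 fold change of the 8 was -0.19, -0.54 and -1.16, against 0.02, -0.01 and 0.00 over all genes.

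**Figure D5:**
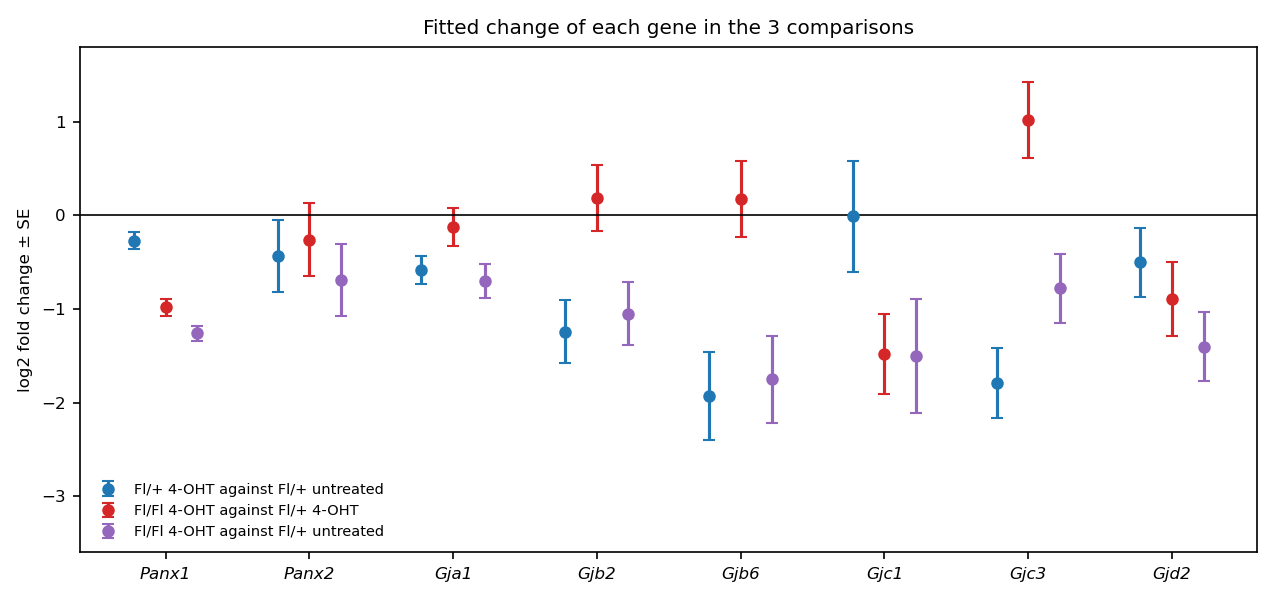
Fitted log2 fold change ± SE of the 8 genes in the 3 comparisons, each fitted on its own 10 libraries. Values for 4-OHT reach -1.93 (Gjb6) and those for deletion run from -1.48 (Gjc1) to 1.02 (Gjc3).

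Labelled sex, which was not used in choosing the genes, was tested in the 10 4-OHT libraries with group as a covariate. The female minus male log2 difference ran from -0.22 (Gjc3) to 0.57 (Panx2), with adjusted p from 0.741 to 0.992 in edgeR's test. Over all genes 0% were called (0 of 15036, with 1051 at an unadjusted p under 0.05, 29 by DESeq2, and 5 by edgeR without the mislabelled library of mouse 39). The fit had 4 libraries labelled female and 6 labelled male. Among the Fl/Fl libraries those labelled male were mice 27, 28 and 29, and those labelled female were mice 37 and 39. In that group labelled sex thus followed the division into lower and higher mouse numbers, and sex apart from mouse number was not tested there. With the mislabelled library kept and no gene called, the adjusted p-values cannot show that sex had no effect.

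Once group means were removed, the 8 genes still varied together in part across the 15 libraries. The highest Pearson correlations of log2(CPM + 0.5) were between Gjc1 and Gjd2 (r = 0.77), Gja1 and Gjb2 (0.67) and Gjb2 and Gjb6 (0.65), and the lowest between Gja1 and Gjd2 (-0.63) and Gja1 and Gjc1 (-0.59). Panx1 correlated with none of the other 7 beyond -0.26 to 0.05. These are descriptions over libraries that share mice (10 for 15) and contain mouse 37. The search for like genes covered the 11141 that averaged 5 CPM or more. The 3 most like each of 6 more abundant members were Flrt3, Bpgm and Polr1b for Panx1 (r = 0.89, 0.88 and 0.83), and Usp53, Dlg1 and Ctnna1 for Gja1 (r = 0.91 each). They were Emx2, 2610306M01Rik and Coro2b for Gjc1 (0.95, 0.95 and 0.94), and D430019H16Rik, 1700088E04Rik and Fut11 for Gjd2 (0.93, 0.93 and 0.90). For Gjc3 they were Ankrd28, Btbd8 and Fbxl4 (0.84, 0.83 and 0.83), and for Gjb6 1110032A03Rik, Rnf103 and Fam117a (0.88, 0.82 and 0.82).

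Of the other 13 genes of the family, 3 had enough counts to be tested in at least 1 comparison: Gja4, Gja5 and Gjb1. Each was scarce. In Fl/Fl 4-OHT against untreated the 2 that were tested, Gja4 and Gja5, were called higher, beside 30.7% called over all genes. In the other 2 comparisons none was called. Panx3 and Gje1 had 0 counts in all 15 libraries, and the remaining 8 had no group mean above 0.258 CPM. Gja4 (Cx37) and Gja5 (Cx40) are the connexins of vascular endothelium. Gja4 was at 0.105 to 0.314 CPM in Fl/+ untreated and at 0.426 to 0.839 CPM in Fl/Fl 4-OHT, without overlap (1.56 ± 0.309, adjusted p = 0.00340 in edgeR's test). At 3 to 9 counts untreated, it passed the filter there through the Fl/Fl cultures (13 to 27 counts), so only a rise could have been called. For deletion alone Gja4 was at 0.74 ± 0.281 (adjusted p = 0.0650).

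Gja5 rose from 1.14 ± 0.570 CPM untreated to 3.81 ± 2.02 CPM in Fl/Fl 4-OHT (1.75 ± 0.441, adjusted p = 0.0118). In Fl/+ 4-OHT its level was 5.17, 6.49 and 3.91 CPM in mice 19, 24 and 26 but 0.728 and 1.20 CPM in mice 35 and 36. The 4-OHT value was 1.62 ± 0.566 (adjusted p = 0.0815), and 1.40 with the mouse as a replicate block (adjusted p = 0.0389). Of its 51-base windows 15.2% also occur in Gpr89 or Zfp697, so its counts are less certain than those of the 8. The summed level of the 6 endothelial and mural markers was 5.13 to 6.26 CPM untreated, 5.83 to 10.04 CPM in Fl/+ 4-OHT and 5.87 to 8.97 CPM in Fl/Fl 4-OHT, with Cdh5 and Cldn5 at 3 counts or fewer in every library. For deletion 0 of the 3 that were tested passed, with 0 at an unadjusted p under 0.05 and 0 by DESeq2. For 4-OHT 0 passed, with 1 at an unadjusted p under 0.05, and the pericyte marker Rgs5 passed by DESeq2 and with the mouse as a replicate block (1.36, adjusted p = 0.0240). Rgs5 also rose in Fl/Fl 4-OHT against untreated, the comparison in which Gja4 and Gja5 rose (2.09 ± 0.397, adjusted p = 0.00283), and was the 1 of 3 called there, beside 30.7% over all genes.

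Gjb1 (Cx32) is, like Gjc3, a connexin of oligodendrocytes. It was at 0 to 0.326 CPM untreated, 0.222 to 1.39 CPM in Fl/+ 4-OHT and 0.155 to 1.55 CPM in Fl/Fl 4-OHT, and passed the filter on low counts for deletion alone (0.10 ± 0.635, adjusted p = 0.919).

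Stem cell markers were set beside Gja1, Gjb2 and Gjc1, which early neural cells also use. Of the 10 markers 4 fell and none rose after deletion, beside 31.7% called over all genes, with a median log2 fold change of -0.22. Hes5, a target of Notch signalling, fell from 20.1 ± 6.82 to 9.89 ± 3.21 CPM (-1.0 ± 0.276, adjusted p = 0.0176). Prom1, a surface glycoprotein, fell from 27.0 ± 5.09 to 17.0 ± 2.5 CPM (-0.65 ± 0.149, adjusted p = 0.00709), and Fabp7, the fatty acid binding protein of radial glia, from 2934 ± 451 to 1905 ± 261 CPM (-0.61 ± 0.131, adjusted p = 0.00552). The call of Sox2, another of them, was lost without mouse 39 (-0.31, adjusted p = 0.0612). After 4-OHT Hes5 (-1.87 ± 0.338, adjusted p = 0.00517) and the transcription factor Pax6 (-0.55 ± 0.129, adjusted p = 0.0182) fell, and Vim, of intermediate filaments, rose (0.49 ± 0.122, adjusted p = 0.0235), beside 13.8% called over all genes. With the mouse as a replicate block 2 rose and 3 fell, beside 25.7%. Against untreated cultures 4 fell and none rose in Fl/Fl 4-OHT, beside 30.7%. The summed level of the list was 7099 to 10277 CPM untreated, 7455 to 9593 CPM in Fl/+ 4-OHT and 5727 to 9878 CPM in Fl/Fl 4-OHT, and its part in the connexin values was not tested.

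Of 4 markers of ependymal cells, the ciliated lining of the ventricle beside the sampled zone, 2 were tested after 4-OHT and 1 passed, beside 13.8% called over all genes. This was Rarres2, which rose from 2.22 ± 0.993 to 5.64 ± 1.55 CPM (1.34 ± 0.305, adjusted p = 0.0154). For deletion 0 of 3 passed in edgeR's test, with 2 at an unadjusted p under 0.05 and 1 by DESeq2, beside 31.7% called over all genes. All 3 that were tested rose in Fl/Fl 4-OHT against untreated, Ccdc153 (2.44 ± 0.652, adjusted p = 0.0155), Rarres2 (1.90 ± 0.298, adjusted p = 0.00102) and Foxj1 (1.09 ± 0.198, adjusted p = 0.00227), beside 30.7% called over all genes. Their sum was 28.5 to 64.0 CPM untreated, 43.3 to 99.5 CPM in Fl/+ 4-OHT and 79.9 to 104 CPM in Fl/Fl 4-OHT. The 6 microglia markers together never exceeded 2.01 CPM.

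Genes whose proteins work with connexins and pannexins were drawn from 3 further lists. Of 11 connexin partners 10 were tested, and 3 fell and none rose after deletion, with a median log2 fold change of -0.22. Over all genes 31.7% were called for deletion, about the same share. Dbn1, an actin-binding partner of Cx43, fell from 194 ± 30.7 to 107 ± 10.7 CPM (-0.84 ± 0.113, adjusted p = 4.6e-04). Ubqln4, a ubiquilin, fell by 0.47 on the log2 scale (SE 0.0661, adjusted p = 6.0e-04), and Nedd4, a ubiquitin ligase that acts on Cx43, by 0.44 (SE 0.0693, adjusted p = 0.00100). Without mouse 37 Cav1, a caveolin, fell as well (-1.15, adjusted p = 0.00233). After 4-OHT the junction scaffold Tjp1, which binds Cx43, rose from 324 ± 23.6 to 493 ± 39.1 CPM (0.61 ± 0.0858, adjusted p = 0.00154). It was the 1 partner of 10 that passed, beside 13.8% over all genes, and with the mouse as a replicate block Cav1 rose too (2.21, adjusted p = 0.00859). In Fl/Fl 4-OHT against untreated 2 of the 10 rose and 2 fell, beside 30.7% over all genes. Without mouse 37 Ubqln4 was no longer called there (-0.24, adjusted p = 0.0576 in edgeR's test), and DESeq2 called 5 of the 10. After 4-OHT Tjp1 and Gja1 thus took opposite directions in the same libraries.

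Of 11 genes of other large-pore channels, 1 of 7 tested rose after deletion, 3 of 5 after 4-OHT and 3 of 7 in Fl/Fl 4-OHT against untreated, and none fell in these fits. Over all genes 31.7%, 13.8% and 30.7% were called. After 4-OHT the volume-regulated channel subunits Lrrc8b (51.2 ± 6.37 to 112 ± 20.4 CPM, 1.13 ± 0.140, adjusted p = 8.8e-04) and Lrrc8c (16.6 ± 3.13 to 30.7 ± 4.28 CPM, 0.89 ± 0.149, adjusted p = 0.00348) rose, as did Calhm5 at about 1 CPM (1.3 ± 0.374, adjusted p = 0.0415). Lrrc8a, the obligatory subunit of that channel, was at -0.35 ± 0.178 (adjusted p = 0.220). After deletion Calhm2 rose, from 0.374 ± 0.0761 to 0.855 ± 0.352 CPM (1.19 ± 0.305, adjusted p = 0.0130). Calhm2 had too few counts to be tested after 4-OHT. It passed the filter for deletion through the Fl/Fl cultures, its highest group, so its rise was partly set by the filter. Lrrc8d fell after deletion when mouse 37 was left out (-0.25, adjusted p = 0.0343).

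Of 13 genes of extracellular ATP and adenosine, the pathway that Panx1 feeds, 12 were tested for deletion and 1 passed, beside 31.7% called over all genes. This was the ATP-gated channel P2rx4, which rose from 13.1 ± 0.942 to 17.8 ± 3.51 CPM (0.46 ± 0.135, adjusted p = 0.0247). Without mouse 37 P2rx4 was at 0.34 (adjusted p = 0.0562), while P2rx7 (0.24, adjusted p = 0.0363) and P2ry6 (-0.97, adjusted p = 0.0224) passed. With the run of mouse numbers as a covariate 4 of the 12 rose. P2rx7, the ATP receptor most often tied to Panx1, was at 112 ± 6.59 CPM in Fl/+ 4-OHT and 128 ± 13.2 CPM in Fl/Fl 4-OHT (0.21 ± 0.0810, adjusted p = 0.0722). After 4-OHT 3 of 11 passed, beside 13.8% over all genes. With the mouse as a replicate block, where the share over all genes was 25.7%, the ATP and ADP receptor gene P2ry1 fell as well (-0.50, adjusted p = 0.0166). Fl/Fl 4-OHT cultures had 4 genes higher and 1 lower than untreated cultures, of 11, beside 30.7%. P2ry6, a receptor for UDP, was at 0.0368 to 0.244 CPM untreated and at 2.44 to 4.50 CPM with 4-OHT (4.56 ± 0.354, adjusted p = 1.2e-04). P2ry6 passed the filter on low counts through the 4-OHT cultures alone, so only a rise could have been called. The adenosine receptor genes parted, with Adora2a higher (2.27 ± 0.610, adjusted p = 0.0315) and Adora2b lower (-1.82 ± 0.270, adjusted p = 0.00203).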

How the data were processed

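RNA-seq counts per gene were deposited by the authors as one table of whole numbers for 15 libraries. Per the labels and the study's methods they came from stranded poly(A) libraries read as 51-base single ends, base-called with bcl2fastq 1.8.4, aligned to GRCm38 with STAR 2.5.4b and counted per gene with featureCounts 1.5.0; the deposited counts are not normalized. Groups were taken from the labels, and mouse numbers from the sample titles. No annotation was found for 95 of the 53801 identifiers.

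From the counts, each pairwise comparison was fitted on its own 10 libraries with edgeR 4.0.16 (R 4.3.3): filterByExpr at min.count 10, TMM scaling, quasi-likelihood F test, and Benjamini-Hochberg adjustment over all genes tested at a threshold of 0.05. Levels are TMM-scaled CPM, and CPM per kb divides by the union of annotated exons (GENCODE M21). Alternatives were DESeq2 1.42.0, its size factors, library-size scaling, other filters, the spread of all 15 libraries, labelled sex, each library left out in turn, the mouse as a replicate block and, added after the data were seen, the run of mouse numbers and leaving out mouse 36. Lists were recounted under some of these. The filter keeps a scarce gene that has enough counts in a single group, so the direction of such a gene was partly set by it (as for Gja4, Calhm2, Mog and P2ry6). The fits were tested on simulated data.

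The 8 genes and all lists were chosen with earlier results of these data known. No p is therefore given for the 8 genes in the 3 group comparisons. The p-values of list genes carry the same limit, and many are the smallest of their list, so they serve as description only. The genes named besides them were all other family genes tested, in each further list up to 3 called genes with the smallest adjusted p per comparison (deletion, 4-OHT), the 3 genes most like each member with a mean of at least 1 CPM, Trrap, and genes that a result turned on, chosen after their values were seen (P2rx7, Lrrc8a, Gfap, Mbp and list genes whose call changed under another setting or in Fl/Fl 4-OHT against untreated). The labels name mice but not how cultures were split, so p-values measure the spread between these cultures. Both Fl/+ groups come from the same 5 mice: deviations of 14821 genes from group means correlated at r of 0.153 to 0.634 within a mouse and -0.559 to 0.35 between mice. Sources differ on the dose of 4-OHT, which is not given here, and on its schedule. Some genes of the family and of the lists are not reported here and were left out of their counts.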

Additional observations from a re-analysis of the deposited data

Results flagged for a closer look

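Within groups of 5, 33 sets of values (11 family genes tested in 3 groups) were examined for a library far from the other 4, and 2 held one, where chance gives about 5%. Gja1 in the Fl/Fl 4-OHT culture of mouse 37 was at 495 CPM, and the other 4 libraries lay at 250 to 291 CPM. That library also had the most Mag (151 CPM against 7.36 to 15.4) and Vim (6017 CPM against 2465 to 3308) of its group. Gjb1 in the untreated culture of mouse 19 was at 0.326 CPM, or 9 counts, against 0 to 0.0700 CPM.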

How the results depend on the processing

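Of the 479 values of the 8 genes under other settings in the 3 group comparisons, 464 moved by less than the spread between libraries, 15 by more, and none that was called turned its sign. Scaling by library size alone moved Panx1 for deletion with 4-OHT from -1.26 to -1.16. The 2 calls for deletion became 1 with the spread of all 15 libraries and 3 with DESeq2, in mice 19 to 29 alone or once the run of mouse numbers was a covariate, and the 4 for 4-OHT became 2 with at least 10 counts in every library. When libraries were left out in turn, calls among the 8 were 2 to 2 for deletion, 1 to 4 for 4-OHT and 4 to 6 for both, calls among the other family genes 0 to 1, 0 to 1 and 2 to 2, and calls over all genes 3772 to 4734, 1271 to 2522 (lowest without the 4-OHT library of mouse 19) and 3700 to 4735. The replicate block by mouse, a paired fit for the 4-OHT comparison, gave 3809 calls over all genes in place of 2044, 6 among the 8 and 1 (Gja5) among the other family genes, and changed no other call of the 8. For the latter DESeq2 also gave 1 (Gja5) and the spread of all 15 libraries 1 (Gjb1, 2.73, adjusted p = 0.0422, while Gja5 was at 0.0589). Without both libraries of mouse 36, 4-OHT had 1614 calls over all genes and 4 among the 8. At least 10 counts in every library left 1 call among the other family genes for both.

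Mice 19 to 29 alone gave 2780 calls for deletion, 1242 for 4-OHT and 4888 for both, the last above the 4620 of the main fit. Among the 8 they gave 3, 4 and 7 calls, and among the other family genes 0, 1 and 2. Mice 35 to 39 alone gave 0, 1063 and, for both, 3 calls, with 0 among the 8 and 0 among the other family genes in each comparison. The smaller number of libraries is part of these fits. For labelled sex, DESeq2 gave 29 calls and edgeR without the mislabelled library 5, and there Gjb2 changed sign to -0.04, Gjd2 to 0.14 and Gja5 to 0.29. Among values that were not called, Gjc1 for 4-OHT changed sign to 0.25 with the replicate block, Panx2 for deletion to 0.42 and Gjc3 for both to 0.17 in mice 35 to 39, and Gjb2 and Gjb6 for deletion to -0.07 and -0.04 without mouse 37. So did Gja5 for deletion (-0.14 to 0.47 without 1 library, -0.03 in mice 19 to 29) and Gjb1 for deletion (-0.51 to 0.67 without 1 library, -0.09 with sex, -0.09 with the run of mouse numbers, -1.26 in mice 19 to 29). The causes were not tested. Depth limits Panx2, Gjb2, Gjb6 and the other family genes most, several of them at 20 counts or fewer in a library.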
